A study of Mus musculus with 24 samples.

Results

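Interleukins are the secreted messengers through which leukocytes and tissue cells signal to each other, and most act through receptors built from a ligand-binding chain and a shared signalling chain. Soluble antagonists and decoy proteins such as Il1rn and Il18bp hold several of them in check. In tumours, Il15 and Il18 are known for sustaining and activating natural killer (NK) cells and T cells, which carry the receptor chains Il2rb and Il18r1. The members described here are the interleukins, their receptors and their antagonists on a NanoString panel, chosen as every gene whose symbol is Il followed by a digit, with Il1b, Il1r2, Il6, Il11 and Il34 left out. They are 24 of the 29 such genes, out of 750 genes with values. All were matched to mouse genes.

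RNA came from 24 samples of mammary tumour-derived transplants (mTDT) in mice, all in BALB/c hosts, and total RNA was counted with NanoString barcodes without amplification. The labels class the immune infiltrate as inflamed in 13 samples, excluded in 4 and desert in 7. A letter at the start of each code refers to tumour origin, with 6 samples under C, 5 under A, 4 each under G and H, 3 under L and 2 under F. The codes also carry 0 (5 samples, here series 0) or F2 (19 samples, here series F2), and neither mark is explained. The sources used here do not give the way classes were assigned, the age of the hosts or any treatment. If the classes were assigned from these same values, the class p-values and the statements on overlap between classes are circular. Samples with the same code number may not be separate tumours, which touches inflamed replicates 3 and 4, excluded replicates 2 and 3, and desert replicates 3, 4 and 6. The p-values therefore measure only the spread between these samples, and in bulk tissue fewer cells of a type and less RNA per cell cannot be told apart.

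Libraries differed in depth and in their background. In 16 libraries, called deep here, the total was 107677 to 1110314 counts, and in 8 shallow libraries it was 5262 to 46603. A member was taken as above background in a library when its log2 level exceeded the mean plus 2 SD of the 75 lowest non-member genes there. That limit was 1.78 to 4.32 in deep libraries and 5.08 to 8.41 in shallow ones. Deep libraries comprised 8 inflamed, 3 excluded and 5 desert samples, and the class and origin comparisons below use these. Of mammary epithelial markers, Epcam was above the limit in 7 and Cdh1 in 3 of the 16 deep libraries. Among 10 T cell genes, 3 were above it in at least 8 deep libraries, whereas both general leukocyte genes, Ptprc and Itgb2, were above it in all 16.

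Promoter windows from RefSeq (GRCm38.p6, 250 bases before to 50 after a start) are shown for Il18r1, the ligand-binding chain of the Il18 receptor, whose groups did not overlap between excluded and inflamed tumours, and for Il18, the member with the largest fitted difference of origin A among those called. Capitals mark TTCNNNGAA, the letters of the element bound by STAT factors, which reads the same on both strands. The Il18r1 window is one of 3 for that gene, and the other 2 hold no match. The Il18 window has none, and both run along the plus strand.
Il18r1, chr1:40465756-40466055: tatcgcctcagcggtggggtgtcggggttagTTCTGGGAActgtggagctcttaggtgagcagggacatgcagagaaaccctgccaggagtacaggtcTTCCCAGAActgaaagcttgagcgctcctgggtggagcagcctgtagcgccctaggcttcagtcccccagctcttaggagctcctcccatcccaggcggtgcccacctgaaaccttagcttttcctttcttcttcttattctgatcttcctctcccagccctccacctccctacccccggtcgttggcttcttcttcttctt
Il18, chr9:50554450-50554749: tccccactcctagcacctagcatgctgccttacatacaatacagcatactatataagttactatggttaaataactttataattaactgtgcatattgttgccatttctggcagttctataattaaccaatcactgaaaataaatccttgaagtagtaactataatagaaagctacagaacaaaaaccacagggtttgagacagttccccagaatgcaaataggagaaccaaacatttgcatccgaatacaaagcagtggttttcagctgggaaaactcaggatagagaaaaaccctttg
A window was given for 19 of the 24 members, and 4 of the 19 (21.1%) held the element, namely Il18r1, Il12rb2, Il4 and Il7r, beside 9.55% of 27025 genes. Such a match describes the letters only. Several members lie beside relatives in the genome: Il10 and Il24 belong to a run on chromosome 1 with Il19 and Il20, Il12rb2 is next to Il23r on chromosome 6, and Il18r1 stands between Il1rl1 and Il18rap.

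Of the 24 members, 15 (62.5%) were above background in at least 8 of the 16 deep libraries and are called expressed, against 560 of all 750 genes (74.7%). Il10ra, Il18bp, Il1rn, Il2rg and Il6ra were above the limit in all 16 deep libraries, Il18 and Il2rb in 15, and Il16, Il21r and Il7r in 14. Il15 was above it in 13, Il33 in 11, Il18r1 and Il2ra in 9 and Il1a in 8. The antagonists Il1rn and Il18bp and 3 receptor chains were thus read in every deep library. Il2, the T cell growth factor, Il4, the type 2 helper cytokine, Il17a, a neutrophil-recruiting cytokine, and Il10, an anti-inflammatory cytokine, were above the limit in 0 of 16, as were Il23r and Il22ra1. These 6 and Il12rb2 would themselves rank among the 75 lowest genes of the panel (7 members). Il12rb2, a receptor chain for a cytokine that drives type 1 responses, was above the limit in 1 library, Il24 in 2 and Il11ra1 in 6. Nothing can be said here about groups for genes below the limit.

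**Figure D1:**
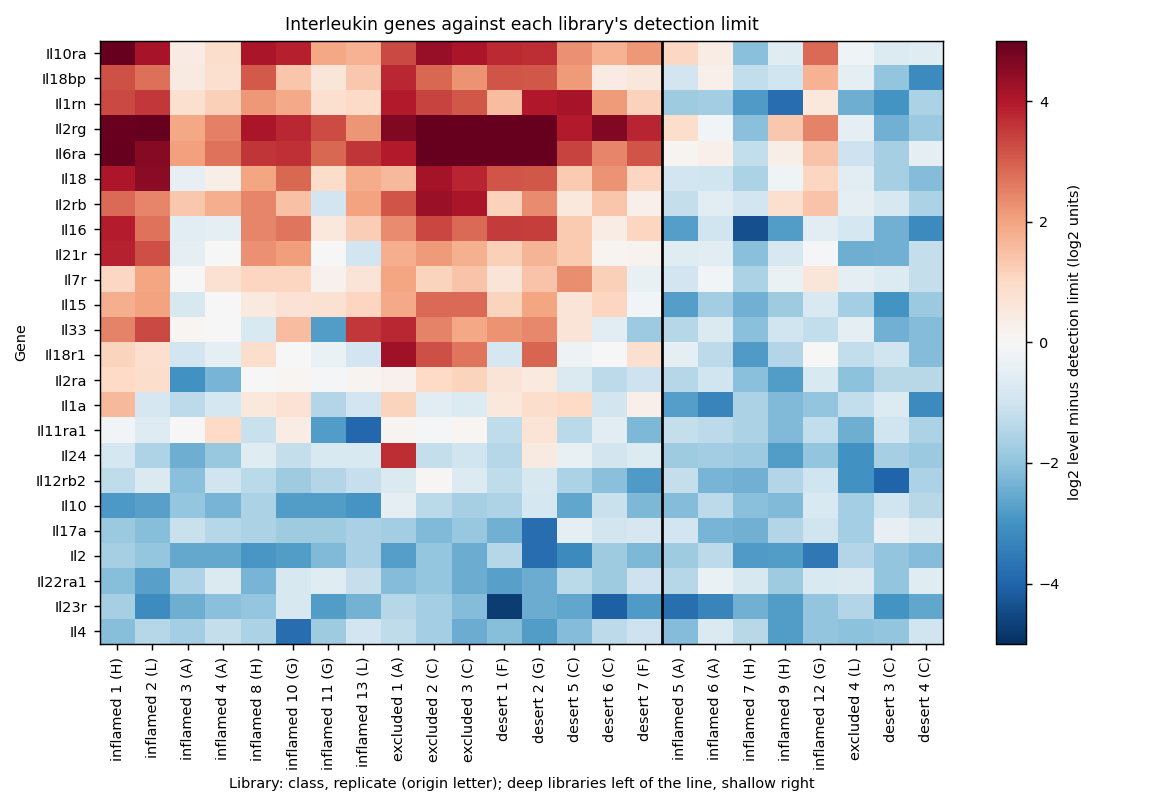
Log2 level minus the detection limit of its library for each of the 24 members in each of the 24 libraries, with colours held at the ends of the scale; deep and shallow libraries stand apart. The upper genes are above the limit in all 16 deep libraries, the lowest in none, and in shallow libraries at most 9 members exceed it.

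Single deep libraries held 8 to 17 members above the limit (median 13.5). The 8 shallow libraries held 0 to 9 (median 1.5), so a low level there does not mean that a gene is off. Inflamed replicate 12, a shallow library of origin G, held 9 of them, led by Il10ra at 84 counts and Il2rg at 67. Inflamed replicates 5, 6 and 9 held 3 each, and the other 4 shallow libraries none.

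Among ligands, Il18, which is released by inflammasome activity and drives interferon-gamma, was at 3.98, 5.95 and 6.05 in excluded replicates 1, 2 and 3. In desert replicates 1, 2, 5, 6 and 7 it was at 5.34, 4.92, 3.77, 5.26 and 5.39. In the 8 inflamed libraries it ran from 3.33 to 6.56 with a median of 5.67. The 3 classes overlapped throughout, with low libraries in each. Il15, which sustains NK and memory T cells, was at 4.25, 4.61 and 5.05 in excluded libraries and at 3.29, 3.80, 3.12, 4.09 and 4.19 in desert ones. Inflamed libraries spanned 2.96 to 4.73 (median 4.03). Every excluded library was thus above every desert library for Il15, while the inflamed group overlapped both. The limma difference of excluded minus desert was 0.94 (SE 0.42, adjusted p = 0.731), which did not pass.

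Il16, a chemoattractant for CD4+ cells, was at 4.72, 5.12 and 5.07 in excluded libraries and 5.69, 5.27, 3.80, 3.38 and 5.39 in desert libraries, with 3.0 to 6.27 in inflamed ones (median 4.82). Its spread in excluded libraries was the narrowest of the classes, 4.97 ± 0.21 (SD, n = 3). Il33, an alarmin stored in the nuclei of stromal and epithelial cells, varied most of all expressed members, with an SD of 1.53 over the 16 deep libraries. It reached 7.20 in inflamed replicate 13 and 6.12 in excluded replicate 1, and was at 0.72, below the limit, in inflamed replicate 11. The low and the high extremes were thus both inflamed tumours, of origins G and L. Il1a, a ligand of the Il1 receptor released by damaged cells, was above the limit in 8 libraries and ran from 1.22 in inflamed replicate 2 to 4.58 in desert replicate 7.

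Of receptors, Il2rb, the signalling chain shared by the Il2 and Il15 receptors, was at 5.52, 6.10 and 6.30 in excluded replicates 1, 2 and 3. Desert libraries stood at 3.34, 4.18, 3.01, 4.41 and 4.58 (replicates 1, 2, 5, 6 and 7). Inflamed libraries ran from 2.53 in replicate 11 to 6.27 in replicate 8, with a median of 5.04. All excluded libraries were above all desert libraries, and the inflamed libraries covered both ranges. The means were 5.97 ± 0.41 (SD, n = 3) in excluded, 4.88 ± 1.10 (n = 8) in inflamed and 3.90 ± 0.69 (n = 5) in desert libraries. By limma, excluded minus desert was 2.07 (SE 0.64, adjusted p = 0.441) and inflamed minus desert 0.98 (SE 0.50, adjusted p = 0.525), so neither passed over 750 genes. Within origin C, the only origin with both classes in deep libraries, Il2rb was at 6.10 and 6.30 in the excluded pair, which shares a code number, and at 3.01 and 4.41 in desert replicates 5 and 6.

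Il18r1 was at 6.58, 5.01 and 4.91 in excluded replicates 1, 2 and 3. Inflamed libraries stood between 2.73 and 4.71 (median 3.09), and 4 of the 8 were above their limit. Desert libraries were split, with 4.74 and 5.13 in replicates 2 and 7 and 1.37, 2.22 and 3.0 in replicates 1, 5 and 6, the last 3 not above the limit. Excluded libraries therefore lay above every inflamed library, and overlapped the desert libraries. The limma difference of inflamed minus excluded was -2.27 (SE 0.69, adjusted p = 0.503) and that of excluded minus desert 2.21 (SE 0.74, adjusted p = 0.455). With the origin letter as a fixed block, inflamed minus excluded became -3.75 (adjusted p = 0.0374 by limma). That fit called 62 of the 750 genes and 1 of the 24 members. Only origin A held both classes in deep libraries, and its 2 inflamed libraries share a code number. Over all alternatives of this difference the adjusted p ran from 0.0374 to 0.988. Within origin A, excluded replicate 1 was at 6.58 and inflamed replicates 3 and 4, neither above the limit, at 2.79 and 3.0. In origin G the order of desert and inflamed was 4.74 for desert replicate 2 against 3.28 and 3.18 for inflamed replicates 10 and 11.

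**Figure D2:**
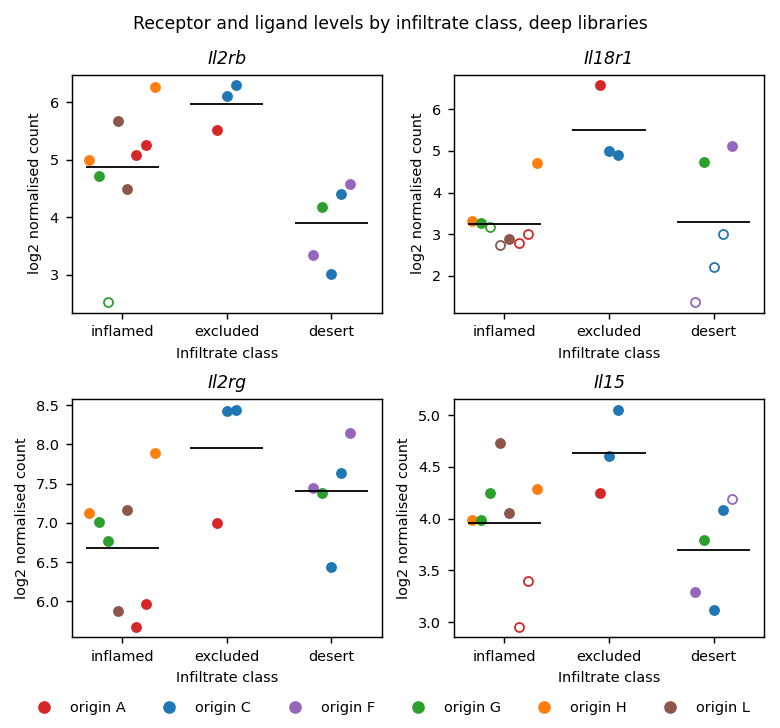
Log2 levels of Il2rb, Il18r1, Il2rg and Il15 in the 16 deep libraries by infiltrate class; each point is a library, coloured by origin letter, filled where it is above its detection limit and open where it is not, and black bars are class means. Il2rb and Il15 in the 3 excluded libraries lie above all 5 desert libraries, and Il18r1 in the excluded libraries lies above all 8 inflamed ones.

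Markers of NK cells moved unevenly with these receptors. Marker sums are the log2 of added unlogged levels, so the strongest gene weighs most in them. Over 7 measured NK cell genes this sum was 8.12 and 8.16 in excluded replicates 2 and 3. It was 5.04 in excluded replicate 1, which had the highest Il18r1 of all. It was 5.13 to 7.17 in desert and 5.55 to 7.61 in inflamed libraries. In desert replicate 7, at 7.17, only 2 of the 7 genes were above the limit. Of these genes, Gzma was above the limit in 16 deep libraries, Gzmb in 9, Ncr1, Klrd1 and Eomes in 8, Klrk1 in 7 and Prf1 in 4. For T cells the sum of 10 genes was 5.92 to 6.40 in excluded, 4.54 to 6.72 in desert and 5.65 to 7.83 in inflamed libraries. In excluded libraries 7 or 8 of the 10 genes were above the limit. Desert replicates 5 and 7, at 4.54 and 6.72, and inflamed replicate 11, at 5.65, had 0 of them above it. The T cell sums of these libraries were thus at background. The part of these cells in the levels of Il2rb and Il18r1 was not tested.

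Il2rg, the common gamma chain of several interleukin receptors, was at 7.0, 8.43 and 8.44 in excluded and at 7.44, 7.38, 6.44, 7.63 and 8.15 in desert libraries. Inflamed libraries were at 5.68 to 7.89 (median 6.90). The inflamed mean, 6.69 ± 0.77 (SD, n = 8), was below the excluded mean, 7.96 ± 0.83 (n = 3), but their libraries overlapped. The limma difference was -1.27 (SE 0.51, adjusted p = 0.526). Il2ra, the chain that gives high affinity for Il2 and marks regulatory T cells, was above the limit in 9 of 16 libraries, with 0.75 to 3.82 in inflamed, 2.58, 2.79 and 3.34 in excluded and 1.72 to 3.30 in desert libraries. Il7r, a receptor for lymphocyte survival, was at 4.35, 2.88 and 3.64 in excluded, 2.82 to 4.80 in desert and 3.21 to 4.90 in inflamed libraries. These 2 genes overlapped between all classes.

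Il21r, the receptor of a T helper cytokine that acts on lymphocytes, was at 4.16, 3.90 and 4.0 in excluded libraries and 3.39, 3.52, 3.77, 3.16 and 4.49 in desert libraries. Inflamed libraries ran from 2.73 to 6.09 (median 4.39), and the 4 highest levels, from 5.26 to 6.09, were all inflamed. Il10ra, the ligand-binding chain of the Il10 receptor, was at 5.66, 6.15 and 6.29 in excluded, 5.92, 5.54, 4.77, 4.75 and 6.51 in desert and 4.17 to 7.90 in inflamed libraries. Il6ra, through which Il6 signals, was at 6.32, 7.88 and 8.04 in excluded, 7.69, 7.73, 5.85, 5.46 and 7.48 in desert and 5.82 to 7.82 in inflamed libraries. For Il10ra and Il6ra no class stood apart.

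Among antagonists, Il18bp, the decoy that binds free Il18, was at 6.14, 4.67 and 4.48 in excluded and 5.35, 4.95, 4.59, 3.44 and 4.88 in desert libraries. Inflamed replicate 8 was the highest at 6.88, and the other inflamed libraries were at 4.11 to 5.34. Il1rn, which blocks the Il1 receptor, was at 6.33, 5.15 and 5.35 in excluded, 3.75, 5.82, 6.60, 5.14 and 5.49 in desert and 4.31 to 5.99 in inflamed libraries. For Il1rn the desert class held both the lowest and the highest level of the 16.

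Counted over the members, no class comparison gave a call. In inflamed against desert tumours 0 of 24 members passed limma at an adjusted p of 0.05, where 0.267% of the 750 genes (2 genes, both lower) did. The members' median difference was 0.34 beside 0.12 over all genes, and 17 of 24 members were higher, beside 439 of the 750 genes. Of the 15 expressed members 10 were higher, with a median of 0.26, beside a median of 0.02 over all 560 expressed genes. Only Il23r (1.64, adjusted p = 0.389) and Il12rb2 (0.81, adjusted p = 0.401) had an unadjusted p below the threshold, beside 80 of the 750 genes, and both were at background in every inflamed and desert library. In inflamed against excluded tumours 0 of 24 passed, with 0.0% of all genes called and 64 genes under the unadjusted threshold. There the members' median was -0.11 (0.00 over all genes), and 10 of 24 members were higher, beside 378 of the 750 genes. Of the 15 expressed members only 3 were higher, so most of those 10 were not called expressed. The median of the 15 was -0.19, near the -0.16 over all 560 expressed genes. Il18r1, Il2rg and Il22ra1 were the members under the unadjusted threshold, and Il22ra1 was at background.

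In excluded against desert tumours 0 of 24 passed by limma, with 0.0% of all genes called and 46 under the unadjusted threshold, among them Il2rb, Il18r1 and Il15. The median was 0.41 over members and 0.13 over all genes, with 17 of 24 members and 437 of the 750 genes higher. Of the 15 expressed members 13 were higher, with a median of 0.51, beside a median of 0.21 over all 560 expressed genes. The share of the 560 that was higher was not worked out for any class comparison. Without overlap between the groups, 3 members were higher in excluded tumours (Il2rb, Il15 and Il12rb2), where 6.0% of all genes were, and none lower, where 1.87% were. Of these, Il12rb2 was near background, above the limit in 1 of 3 excluded and 0 of 5 desert libraries. Between inflamed and excluded tumours Il18r1 was lower without overlap, where 2.27% of all genes were, and Il2, at background, was higher, where 1.33% were. Between inflamed and desert tumours none of the 24 was free of overlap, with 0.0% of all genes higher and 0.267% lower. The F test over the 3 classes called 0 members and 0.0% of genes, with 72 genes, 3 of them members, under the unadjusted threshold, and the smallest adjusted p of a member was 0.432. The 3 pairwise comparisons share libraries and are not independent of each other. Classes and origins were also partly joined, since deep libraries of H and L were all inflamed and those of F all desert, so that for these 3 letters class and origin cannot be told apart.

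Origin A gave the most calls of the 6 letters. Its 3 deep libraries were excluded replicate 1 and inflamed replicates 3 and 4, and the latter share a code number. Each letter was set against the mean of the other letters in 1 limma fit. In A, 5 of 24 members passed (4 lower, 1 higher), beside 22.4% of all genes (13.7% lower, 8.67% higher), so their share was near that of the panel. The median difference was 0.10 over members and -0.22 over all genes. No member was free of overlap between A and the rest, where 5.07% of genes were higher and 1.47% lower.

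Il18 was lower in A, at 3.98 in excluded replicate 1 and 3.33 (below the limit) and 3.71 in inflamed replicates 3 and 4. The 13 deep libraries of other origins were at 3.77 to 6.56, and only desert replicate 5 of origin C fell into the range of A. The limma difference was -1.89 (SE 0.48, adjusted p = 0.0193). Il2ra was at 2.58, 0.75 and 1.13 in the same libraries, the last 2 below the limit, and the difference was -1.59 (SE 0.47, adjusted p = 0.0297). Il16 was at 4.72, 3.17 and 3.0, again below the limit in the inflamed pair, with a difference of -1.56 (SE 0.50, adjusted p = 0.0391). Il10ra was above the limit in all 3, at 5.66, 4.17 and 4.30, and differed by -1.50 (SE 0.50, adjusted p = 0.0451). For Il2ra, Il16 and Il10ra the inflamed pair held the low levels, and excluded replicate 1 lay inside the range of the other origins.

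Il11ra1, the ligand-binding chain for Il11, was the 1 member higher in A. Its levels there were 2.48 in excluded replicate 1, 3.79 in inflamed replicate 3 and 4.45 in inflamed replicate 4. The limits of these libraries were 2.36, 3.76 and 3.44, so only the last level was clearly above background. In inflamed replicate 3 the background averaged 17.96 counts, the highest of the deep libraries. Il11ra1 was not called expressed, and it was above the limit in only 3 of the 13 other deep libraries. Those were inflamed replicate 10 at 3.64, desert replicate 2 at 2.52 and excluded replicate 3 at 2.34. The limma difference was 1.84 (SE 0.60, adjusted p = 0.0419), and it compared levels that were mostly near or below the limit. A's inflamed pair held the 2 highest levels of the 16 libraries, while excluded replicate 1 overlapped other origins.

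**Figure D3:**
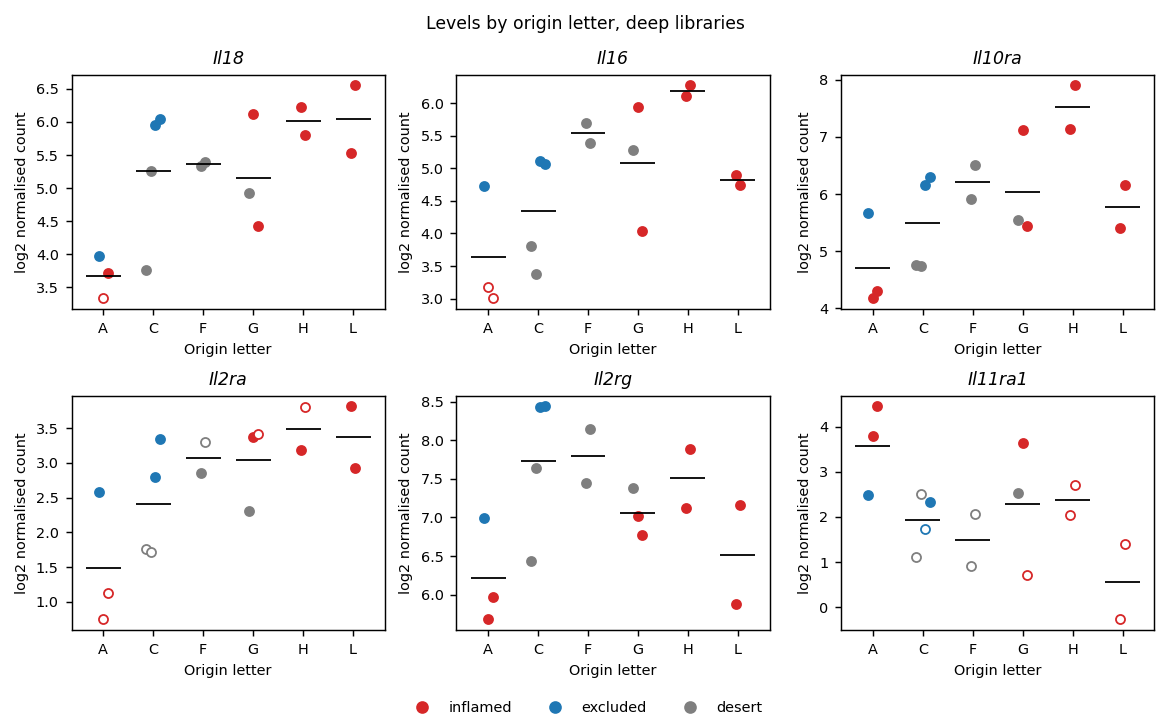
Log2 levels of Il18, Il16, Il10ra, Il2ra, Il2rg and Il11ra1 in deep libraries by origin letter; each point is a library, coloured by infiltrate class, filled where above its detection limit and open where not, and black bars are means. Il18 lies at 3.33 to 3.98 in the 3 libraries of origin A, and Il11ra1 is highest in 2 of them.

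These calls rested on the inflamed pair, whose libraries share a code number but count as 2 in the fit. With 1 value per code number 0 members passed and Il18 differed by -1.77 (adjusted p = 0.182 by limma), while the calls over all genes went from 168 to 6. Without inflamed replicate 3, or without inflamed replicate 4, 0 members passed, and Il18 had adjusted p = 0.146 and 0.128 by limma. Without excluded replicate 1, 6 passed, with Il2rg added at adjusted p = 0.0346. Of the other libraries, leaving out inflamed replicate 8 left 1 call (Il18), and inflamed replicate 1, desert replicate 1, excluded replicate 2 or excluded replicate 3 left 2 calls (Il18 and Il2ra). Without inflamed replicate 2, inflamed replicate 13 or desert replicate 2 there were 3 calls, with Il18 and Il2ra in each. Il18 was thus called with every single library left out other than 1 of the inflamed pair, and its adjusted p ran from 0.00778 to 0.588 over all alternatives. Recentring each library on its expressed genes shifted the median of all genes from -0.22 to 0.23 and left Il18 (-1.44) and Il11ra1 (2.30) called.

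Cell markers differed with A as well. The summed level of Ptprc and Itgb2 was 8.39 in excluded replicate 1 and 6.78 and 6.80 in inflamed replicates 3 and 4, against 7.40 to 10.25 in other origins. The sum of 7 macrophage genes was 10.40, 8.81 and 8.91, against 10.10 to 12.78 elsewhere. The sum of Epcam and Cdh1 was 10.27 to 10.97 in A and at most 4.50 in other origins. In inflamed replicates 3 and 4 the neutrophil sum was 6.32 and 6.42, against 7.67 to 12.25 in other origins. Their T cell sums (6.04 and 5.83) and NK cell sums (5.55 and 5.66) lay inside the range of other origins. Only 1 gene of each of these 2 lists was above the limit there. Leukocyte and macrophage sums were thus low in the same pair that was low for Il10ra, Il16 and Il2ra, while T cell and NK cell sums were not. The part of these cells in those levels was not tested.

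Origin H, with 2 deep libraries (inflamed replicates 1 and 8), held high levels of several members. Il21r was at 6.03 and 6.09, the 2 highest of the 16, and its difference from the other origins was 2.18 (SE 0.61, adjusted p = 0.222). Il10ra was at 7.14 and 7.90, also the 2 highest, with a difference of 1.88 (SE 0.58, adjusted p = 0.222). Il16, at 6.10 and 6.27 and again the 2 highest, differed by 1.51 (SE 0.58, adjusted p = 0.231) and Il18bp by 1.36 (SE 0.55, adjusted p = 0.255). The share of all genes with their 2 highest levels in H was not worked out. Il18bp was at 5.34 and 6.88 in inflamed replicates 1 and 8, and its difference was 0.59 without the latter; replicate 1 lay within the range of the other origins. None passed by limma, nor did any of the 750 genes (0.0%), although 107 genes and these 4 members were under the unadjusted threshold. The members' median was 0.45 and that of all genes 0.26, with 20 of 24 members and 494 of the 750 genes higher. In inflamed replicates 1 and 8 the leukocyte sum was 9.83 and 10.25 and the macrophage sum 12.78 and 12.21. The leukocyte sum of inflamed replicate 10 of origin G was 9.97. The part of these cells in the levels of the 4 members was not tested.

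In origin L, Il33 was at 5.36 and 7.20 in inflamed replicates 2 and 13. The other origins ranged from 0.72 to 6.12, so the lower library of L overlapped them. The limma difference was 2.57 (SE 0.98, adjusted p = 0.998), and no gene of the panel passed (0.0%). Il11ra1 was at 1.41 and -0.27 in L, both below the limit, with a difference of -1.77 (SE 0.71, adjusted p = 0.998). Il33 in A was at 6.12, 3.86 and 3.40, and in H at 4.64 and 3.07. Origins C (0.133% of genes called), F (0.0%) and G (0.0%) gave no call among members. The F test over all 6 letters called 0.4% of genes and 0 members, and the smallest adjusted p of a member was 0.233. Under the unadjusted threshold were 138 genes, among them 3 members (Il10ra, Il16 and Il18).

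Series 0 and series F2 gave 2 calls among members, and both were genes at background. Il17a was at -1.97 to 0.62 in the 5 libraries of series 0 and at -0.41 to 3.49 in the 11 deep libraries of F2, and the limma difference of series 0 minus F2 was -2.06 (SE 0.53, adjusted p = 0.0379). Il22ra1, a receptor chain of epithelial cells, was at -0.68 to 0.21 and -0.25 to 3.30, with a difference of -2.10 (SE 0.53, adjusted p = 0.0342). Both groups overlapped for both genes. Of all genes 4.13% were called (3.47% lower and 0.667% higher in series 0). Neither gene was above the limit in any of the 24 libraries, and their mean counts were 5.4 and 9.09 for Il17a and 4.8 and 8.73 for Il22ra1.

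The level of genes at background followed the same split. The 75 lowest genes averaged 0.19 in series 0 and 1.42 in F2, a difference of -1.23. One count was worth a median of -2.54 in series 0, whose libraries held 982205 to 1110314 counts, and of -1.08 in F2, whose deep libraries held 107677 to 976271. With quantile normalisation or with expressed genes only, 0 members were called. Leaving out single libraries left 0 calls for excluded replicate 1, inflamed replicates 1, 2, 3, 4, 11 and 13 and desert replicates 1, 2 and 7, and 1 call (Il22ra1) for inflamed replicate 8 and desert replicates 5 and 6. None of the 24 members was free of overlap between the series, where 0.133% of genes were higher and 0.533% lower. No expressed member differed between the series by this test.

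**Figure D4:**
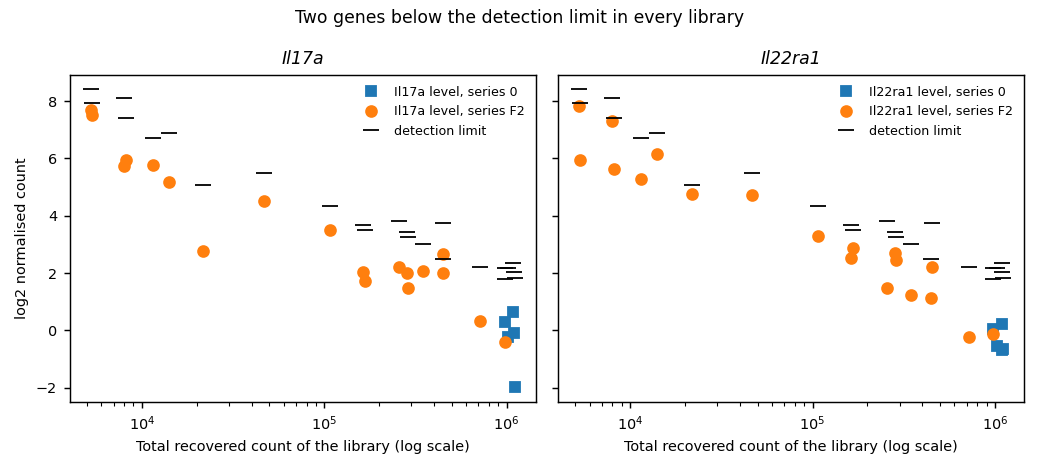
Log2 levels of Il17a and Il22ra1 in all 24 libraries against the total recovered count of the library (log scale), with squares for series 0, circles for series F2 and black bars for the detection limit of each library. Every point lies below its limit, levels and limits both fall with the total count, and the 5 libraries of series 0 lie at the highest totals.

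The highest and lowest levels of several expressed members fell in a few libraries. Some library must hold each extreme, and whether these numbers exceed those expected was not tested. Inflamed replicate 8, of origin H, held the highest level of 5 of the 15 expressed members and excluded replicate 3 of 4. Inflamed replicate 3, of origin A, held the lowest level of 5, and desert replicate 1 of 3. In inflamed replicate 3, Il15 (2.96), Il18 (3.33) and Il2ra (0.75) were below its limit of 3.76. By the median rank over the 15 members, from 1 for the lowest to 16, inflamed replicate 8 stood at 15, inflamed replicate 10 at 13, and inflamed replicates 3 and 4 at 3 and 4. The inflamed class thus held both ends of the order. Ranks over all expressed genes of the panel were not worked out, so the order is not set apart from a shift of whole libraries. For the 2 pairs of deep libraries that share a code number, the median difference over 24 members was 0.31 between inflamed replicates 3 and 4 and 0.18 between excluded replicates 2 and 3, and their counts over all genes differed by more than sampling noise. Of the third shared number, shallow desert replicates 3 and 4 differed by a median of 0.70 from each other and by 3.04 and 3.48 from the deep desert replicate 6.

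Il24, an Il10 family cytokine of epithelium and immune cells, stood out in 1 tumour. Excluded replicate 1 was at 6.05 (344 counts), and the other 15 deep libraries were at 0.49 to 3.66, with only desert replicate 2 (2.28) also above its limit. Il10, which lies in the same run of genes beyond Il20 and Il19, was at most at 2.22 and below the limit in all 16 deep libraries. The same library had the highest Il18r1 and the second highest Il33, Il18bp and Il1rn. Over the 15 expressed members the SD across deep libraries was 0.58 for Il15 to 1.53 for Il33 (median 1.01), and over all 560 expressed genes the median SD was 0.85.

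**Figure D5:**
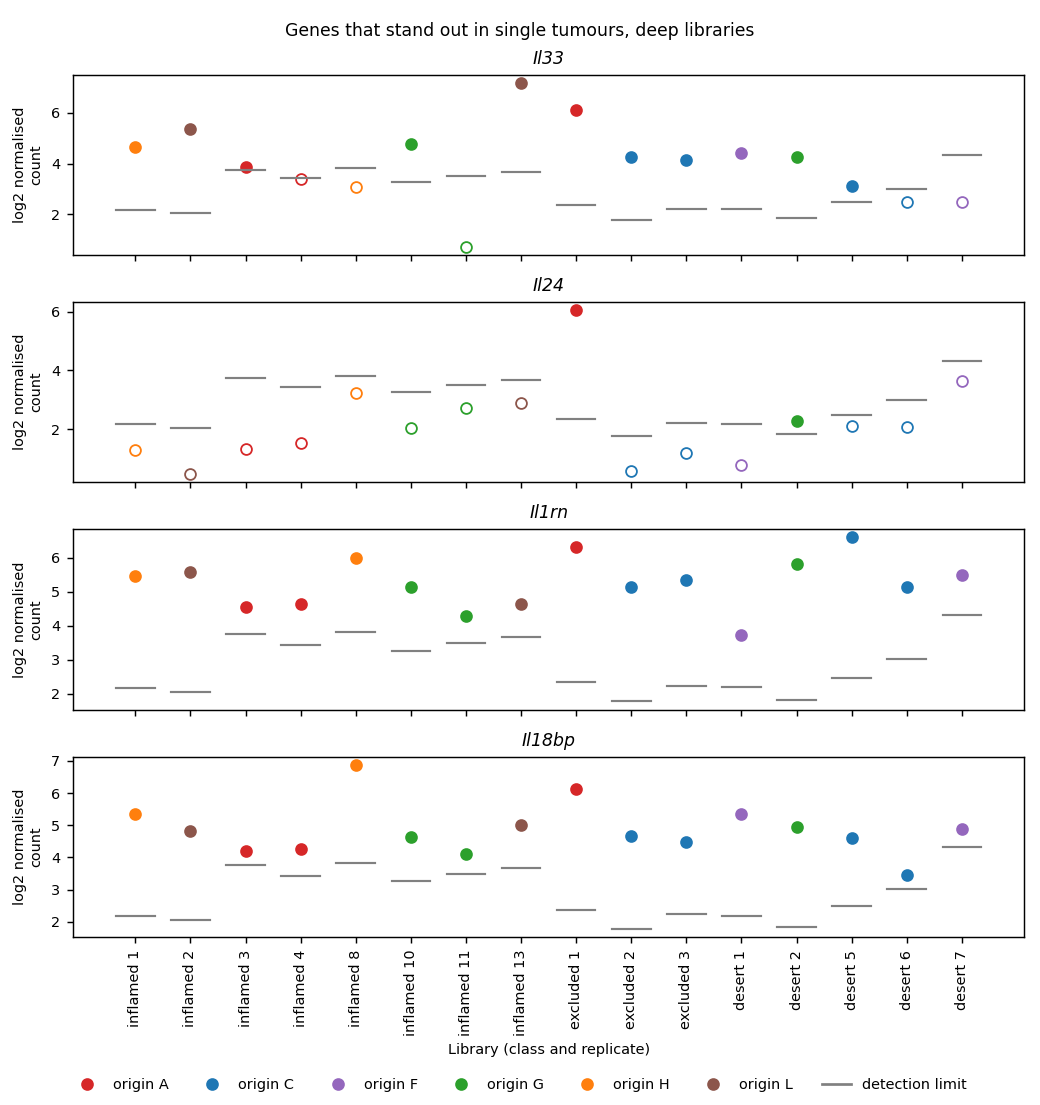
Log2 levels of Il33, Il24, Il1rn and Il18bp in each of the 16 deep libraries, coloured by origin letter, with grey bars for the detection limit of the library; filled points are above it and open points are not. Il24 is far above its limit only in excluded replicate 1 (6.05), Il33 is highest in inflamed replicate 13 (7.20), and Il18bp in inflamed replicate 8 (6.88).

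Of 34 genes that carry interleukin signals or belong to related cytokine families, 15 were measured and 11 of them expressed. None passed limma in a class comparison, where the smallest p in inflamed against desert tumours belonged to Tslp (1.14, SE 0.56, adjusted p = 0.501), Csf2 (1.31, SE 0.79, adjusted p = 0.578) and Stat3 (-0.41, SE 0.29, adjusted p = 0.608). Their median difference there was 0.07, beside 0.12 over all genes. In origin A, Myd88, the adaptor through which the Il1 and Il18 receptors signal, was lower by limma (-1.65, SE 0.43, adjusted p = 0.0196), the 1 call among the 15, beside 22.4% of all genes. The median of the 15 was -0.64, and that of all genes -0.22. It was at 4.24 and 4.49 in the inflamed pair, which shares a code number, at 6.65 in excluded replicate 1 and at 6.40 to 7.18 elsewhere, so excluded replicate 1 overlapped the other origins. Over the 6 letters together, Casp1, the protease that activates Il18, had adjusted p = 0.245, Myd88 0.263 and Tslp 0.283 by limma's F test. In series 0 against F2, Lif, a cytokine of the Il6 family, was higher (1.38, SE 0.34, adjusted p = 0.0342), and Stat4, which transmits type 1 signals, was lower (-2.09, SE 0.48, adjusted p = 0.0313) but above its limit in 0 deep libraries. These were 2 of the 15, beside 4.13% of all genes called, and no gene of the panel was called there with quantile normalisation or with expressed genes only.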

How the data were processed

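Total RNA of 24 samples was extracted with Trizol and labelled with NanoString barcodes, per the labels. The authors deposited log2 values in 1 table. Undoing the log and dividing by a single factor for each library gives whole numbers (within 0.001) for 100% of the entries. An entry is thus the log2 of a count times a factor, and neither the rule for the factor nor any background subtraction is given in the sources used here. Values ran from -2.97 to 14.87. The table has 784 rows. Of these, 34 hold no value (14 controls and 20 genes) and were not analysed here, and 750 genes remain. Depth in what follows is the sum of recovered counts.

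Tests on log2 levels used lmFit and eBayes of limma 3.58.1 (R 4.3.3, 2-sided, Benjamini-Hochberg over 750 genes, threshold 0.05) on the 16 libraries of at least 100000 counts. Differences are log2 with their SE, and ± is the SD. Low genes of shallow libraries are background times the factor, so those libraries entered only as an alternative, in which desert replicates 3 and 4, whose counts agree within sampling noise (chi-square p = 0.545), were averaged. The fit was tested on simulated data. Levels of different genes come from different probes and were not compared with each other. Only the marker sums put them together, as the log2 of the added unlogged levels.

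The members, lists, tests and limits were chosen with earlier results of these data known. All members are accounted for. Expressed members are given by library, other members where they passed a test, and the rest by ranges and counts. Il24, Il10 and the genes without overlap were chosen for mention once their values were known. The alternatives were all libraries, a limit of 200000 counts, the origin letter as a block, 1 value per code number, F2 codes only, recentring, quantile normalisation, expressed genes only, a robust, trended variance, a pseudocount of 10, voom weights and leaving out each library. Leaving out the inflamed pair and the alternatives of the origin A comparison were added after the data were seen. Replicates were numbered by sample order and the numbers pair nothing.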

Additional observations from a re-analysis of the deposited data

Results flagged for a closer look

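Dixon's test was run on 96 sets of libraries (each member in the inflamed class, the desert class, origin C and series 0, which hold 4 to 10 deep libraries). In 7 (7.29%) it found 1 library far from the rest, which chance alone gives in about 5% of sets of independent libraries. That rate need not hold here, since the sets share libraries. Inflamed replicates 3 and 4, and excluded replicates 2 and 3 of origin C, also share a code number. Il18bp in inflamed replicate 8 was at 6.88, against 4.11 to 5.34 in the other 7 inflamed libraries. Il18r1 in the same library was at 4.71, against 2.73 to 3.31. Il18 in desert replicate 5 was at 3.77, against 4.92 to 5.39 in the other desert libraries. Among the libraries of origin C, Il1rn in desert replicate 5 was at 6.60, against 5.15 to 5.35, and Il18bp in desert replicate 6 was at 3.44, against 4.48 to 4.67. The last 2 were below the detection limit: Il12rb2 in desert replicate 7 was at 1.49 (2 counts), against 0.89 to 1.03 in the other desert libraries, and Il23r in desert replicate 6 was at -1.08 (1 count), against -0.11 to 0.08 in origin C.

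Members were above background in 4 of the 8 shallow libraries, which entered the comparisons only as an alternative. Inflamed replicate 12 held 9 of them (Il10ra, Il18, Il18bp, Il18r1, Il1rn, Il2rb, Il2rg, Il6ra and Il7r). Inflamed replicate 5 held 3 (Il10ra, Il2rg and Il6ra), inflamed replicate 6 held 3 (Il10ra, Il18bp and Il6ra) and inflamed replicate 9 held 3 (Il2rb, Il2rg and Il6ra).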

How the results depend on the processing

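No paired analysis was possible because the labels give no replicate numbers shared between groups. In the class comparisons 0 members were called under every alternative named above, leaving out each library included, with 1 exception: with the origin letter as a block, 1 member (Il18r1) was called in inflamed minus excluded. Il18r1 in inflamed minus desert was near 0 (-0.06) and turned its sign with all 24 libraries (0.21), the limit of 200000 counts (0.49), recentring (0.00195), voom weights (0.10) and without the inflamed pair (0.0525). Without single libraries it ran from -0.54 to 0.40. The causes were not tested.

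In origin A the 5 calls became 0 with all 24 libraries, with 1 value per code number or without the inflamed pair, 2 with recentring, and 4 with quantile normalisation or expressed genes only. Without single libraries they ran from 0 to 6. For the 6 letters, calls among members ran from 0 to 1 (Il16, without excluded replicate 1). In series 0 minus F2 the 2 calls became 5 with the letter block (Il17a, Il2, Il22ra1, Il23r and Il4, all at background) and 0 with quantile normalisation, expressed genes only or without the inflamed pair, with 0 to 2 without single libraries. Expressed members numbered 12 at mean plus 3 SD, 16 with members allowed among the 75 lowest genes and 16 with the 40 lowest genes, against 15.

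Over all genes, inflamed minus desert called 2 genes, 8 at 200000 counts, 1 with recentring and 0 with all 24 libraries, the letter block, 1 value per code number, F2 codes or without the inflamed pair. Inflamed minus excluded called 0, 62 with the letter block and 1 at 200000 counts. The 3 classes together called 0, and 7 with the letter block. The 6 letters called 3, 10 with quantile normalisation, 5 with recentring or at 200000 counts, 149 without excluded replicate 1, 12 without desert replicate 7, and 1 with all 24 libraries, 1 value per code number, expressed genes only, or without 1 or both of the inflamed pair. Origin A called 168, 24 with all 24 libraries, 6 with 1 value per code number, 9 without the inflamed pair and 14 to 298 without single libraries. The series called 31, 95 with the letter block, 52 with recentring, 0 with quantile normalisation or expressed genes only, 10 without the inflamed pair and 0 to 42 without single libraries. Depth limits what can be said of the 9 members not called expressed and of the 8 shallow libraries.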
